A study of Mus musculus with 26 samples.

Results

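The region from 50 to 70 Mb of mouse chromosome 15 (GRCm38), which holds the Myc gene and its neighbour Pvt1, was examined in 4 lists of ChIRP peaks for the lncRNA MaTAR25. Its members are all peaks of the 4 lists whose centre lies between these bounds, 2591 of 273053 peaks in all. They comprise 685 peaks of the 4T1 even list, 629 of the 4T1 odd list, 764 of the 4T1 total list and 513 of the NDL total list. The rest of chromosome 15 held 9310 peaks. The region was selected on the number and scores of its peaks in these same lists, so both are given as a description, with no test.

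ChIRP (chromatin isolation by RNA purification) pulls down an RNA, with the chromatin fixed to it, on biotinylated antisense oligonucleotides, and the recovered DNA is sequenced. The total pool held 14 oligonucleotides against MaTAR25, the odd and even pools held every second one of them, and each pool was compared with a pulldown on oligonucleotides against the mRNA of Ppib, a housekeeping gene. The 4T1 lists came from 4T1 cells, a triple-negative mammary carcinoma line of BALB/c origin, and the NDL list from NDL cells, labelled as primary mammary tumor cells of FVB mice. The sources disagree on the tumor model of the NDL cells: the labels give the genotype MMTV-PyMT, while the paper names MMTV-Neu-NDL and, in the title of a supplementary list, the line cNeu. Both transgenes are driven by the MMTV promoter, which is active in mammary epithelium, and which of them these cells carried was not settled here. Each list was made from pooled libraries, 3 for the even pool and 2 for each of the others, and so holds no replicate values. RNA-seq of polyA RNA covered 9 libraries of 4T1 cells: 2 Control libraries, 3 of KO1 and 4 of KO2. The Control cells were wild type for MaTAR25 (annotated as 1200007C13Rik on chromosome 2) and had received a guide against Renilla luciferase, while KO1 and KO2 were MaTAR25-/- cells made with CRISPR/Cas9 and paired guides around the transcription start. KO1 and KO2 are each 1 sorted clone, so the loss of MaTAR25 and other differences of a clone cannot be told apart within either of them. The paper describes its control cells as sorted clones too. Both comparisons share the same Control libraries, so a trait of those cells cannot be told apart from the loss of MaTAR25 either. No RNA-seq of NDL cells was analysed here.

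Myc encodes a basic helix-loop-helix transcription factor that drives growth and proliferation programs in many tumors. Pvt1, downstream of it, is transcribed into a lncRNA, and its locus contains DNA elements that act on Myc. The stretch of chromosome that holds Myc, Pvt1 and genes such as Trps1, Has2 and Atad2 is often gained in copy in mammary tumors. A gain in copy gives more DNA to any pulldown that recovers DNA. Oligonucleotides can also pair directly with DNA that carries their sequence, which is why ChIRP is run with separate odd and even pools.

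Of the 11 highest loci of the region in the 4T1 total list, 8 are shown first as sequences, with all of those next to Myc and in Pvt1, since each carried a stretch identical to 1 of the MaTAR25 oligonucleotides. The other 3, a pair of intergenic loci nearest to Has2 and 1 in Kcnq3, also carried such a match and are not shown. The sequences are the plus strand of GRCm38, from 15 bases before to 15 bases after the match, with the bases shared with the oligonucleotide in capitals. A plus sign marks an oligonucleotide identical to the plus strand and a minus sign one identical to the minus strand, so that the capitals are then its reverse complement.
Pvt1 intron, chr15:62063761-62063805, oligonucleotide 4 (+): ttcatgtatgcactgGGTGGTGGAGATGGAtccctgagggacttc
Adcy8 intron, chr15:64773282-64773327, oligonucleotide 11 (-): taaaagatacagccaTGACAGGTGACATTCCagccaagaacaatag
Fam49b intron, chr15:64040303-64040346, oligonucleotide 7 (-): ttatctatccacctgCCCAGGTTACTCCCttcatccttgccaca
Intergenic, chr15:57052545-57052590, oligonucleotide 11 (+): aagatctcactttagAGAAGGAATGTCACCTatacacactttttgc
Intergenic upstream of Myc, chr15:61796070-61796115, oligonucleotide 12 (-): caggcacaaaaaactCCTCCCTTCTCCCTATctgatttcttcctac
Intergenic upstream of Myc, chr15:61926830-61926874, oligonucleotide 12 (-): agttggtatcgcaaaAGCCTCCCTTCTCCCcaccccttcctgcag
Intergenic between Myc and Pvt1, chr15:62016626-62016669, oligonucleotide 6 (-): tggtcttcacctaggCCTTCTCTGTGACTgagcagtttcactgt
Intergenic upstream of Zhx2, chr15:57603278-57603324, oligonucleotide 11 (+): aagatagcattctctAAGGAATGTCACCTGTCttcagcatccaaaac

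The oligonucleotides named above are given next, 5′ to 3′, with the bases found at the first locus listed for each in capitals.
Oligonucleotide 4: caGGTGGTGGAGATGGAatg
Oligonucleotide 6: AGTCACAGAGAAGGacggcg
Oligonucleotide 7: ttGGGAGTAACCTGGGgaag
Oligonucleotide 11: agaaGGAATGTCACCTGTCA
Oligonucleotide 12: aATAGGGAGAAGGGAGGctc
Oligonucleotide 11 gave the match at 3 of these loci, and oligonucleotide 12 at both loci upstream of Myc. The longest match was 17 bases, at the locus upstream of Zhx2.

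The 3 lists from 4T1 cells held more peaks per Mb in the region than in the rest of chromosome 15, and the list from NDL cells held fewer. Peaks were counted per Mb of sequenced bases, with exact Poisson intervals that cover counting error only. In the 4T1 total list the region held 38.2 peaks per Mb (95% interval 35.5 to 41.0) against 32.9 in the rest, a ratio of 1.16 (1.07 to 1.26). In the 4T1 even list it held 34.3 against 26.4, a ratio of 1.296 (1.188 to 1.413). The 4T1 odd list gave 31.5 against 25.1, a ratio of 1.25 (1.14 to 1.37). In NDL cells the region held 25.7 peaks per Mb against 31.0, a ratio of 0.827 (0.751 to 0.910). The rest of the chromosome was itself uneven. NDL peaks stood at 24.8 per Mb below 50 Mb, much as in the region, and at 40.9 per Mb from 73 Mb to the end, where 4T1 total peaks stood at 29.6 and 37.0 per Mb.

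Within the region the peaks were not evenly spread. The densest single Mb of the 4T1 total list began at 59 Mb and held 60 peaks, and that of the NDL list was the same Mb with 43 peaks. The sparsest Mb of both lists began at 51 Mb, with 20 peaks in the 4T1 total list and 15 in the NDL list. In the Mb bins of the region the median was 37.5 peaks in the 4T1 total list and 24.5 in the NDL list, against 34 and 30 in the other 81 bins of the chromosome. The bounds of the region were round numbers and cut through no gap in the peaks. The last 4T1 total peak before the lower bound had a score of 27.1 and the first inside it 113.8, while the last inside the upper bound had 22.8 and the first beyond it 72.6.

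**Figure D1:**
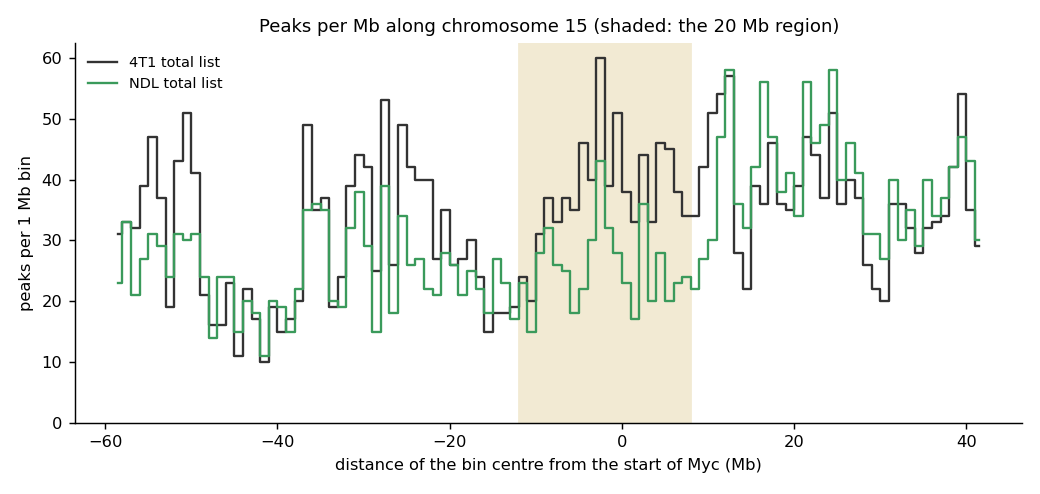
Peaks per 1 Mb bin (vertical axis) of the 4T1 total list (black) and the NDL total list (green) along chromosome 15, by distance of the bin centre from the start of Myc in Mb (horizontal axis), with the 20 Mb region shaded. In the shaded region the black line reaches 60 peaks and lies above the green line in all 20 bins, while the green line reaches 58 peaks beyond the region.

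The upper end of the score distribution set the region apart more than its middle. Scores are those of the deposited lists, and no source used here states how they were scaled, so they were compared within a list, and between lists only as ratios centred on the median of the genome. Scores of 1 locus in several lists are given side by side with no comparison. The median score in the region and in the rest of chromosome 15 was 45.7 and 37.4 in the 4T1 even list, 52.7 and 45.2 in the odd list, 46.9 and 42.4 in the 4T1 total list and 40.8 and 39.5 in the NDL list. The median peak of the region stood at the 56.9th percentile of the chromosome in the even list, the 54.8th in the odd list, the 53.5th in the 4T1 total list and the 50.6th in the NDL list. The 99th percentile of score was 2541 in the region and 1220 in the rest for the odd list, and 1213 and 529 for the 4T1 total list. It was 653 and 364 for the even list and 624 and 553 for the NDL list, which had the smallest gap.

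The region makes up 0.781% of the sequenced genome and held 1.06%, 1.03% and 0.995% of the even, odd and total peaks of 4T1 cells and 0.729% of the NDL peaks. The even list gave no score ratios on chromosome 3 with any other list, where the 4T1 total and NDL lists shared 2877 peaks. The even list thus seems to lack that chromosome, which would raise its shares and ranks over the genome. Of the 10 highest-scoring peaks of the genome the region held 5 in the odd list, 2 in the 4T1 total list and 1 in the even list, and 0 in the NDL list (95% Wilson upper bound 27.8%). Of the 100 highest it held 9 in the even list, 11 in the odd list and 12 in the 4T1 total list (Wilson interval 6.999 to 19.81%), where the rest of chromosome 15 held 5, 7 and 4. In the NDL list it held 3 of the 100 highest (1.03 to 8.45%) and the rest of the chromosome held 6. Of the 1000 highest, with ties, the region held 35 in the even list, 22 in the odd list, 29 in the 4T1 total list and 14 in the NDL list.

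**Figure D2:**
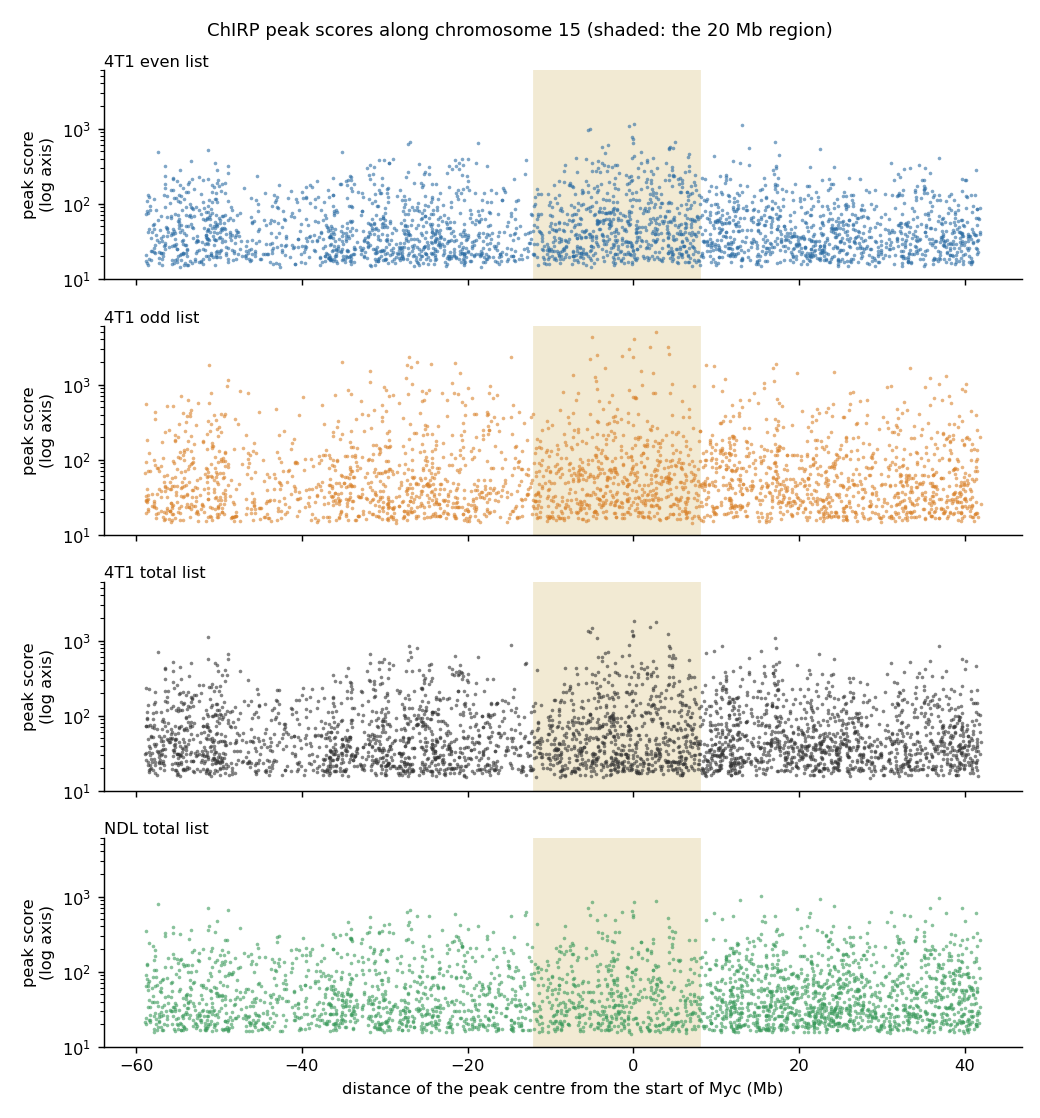
Score of each ChIRP peak (vertical log axis, in the units of the deposited lists) along chromosome 15, by distance of the peak centre from the start of Myc in Mb, in 1 panel for each of the 4 lists, with the 20 Mb region shaded. The highest 4T1 points lie inside the shading, up to 4941 in the odd list and 1843 in the 4T1 total list, while the NDL panel has its highest point, at 1004, outside it.

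The peaks at the Myc locus lay in its flanks and in Pvt1, not in the gene itself. No list had a peak inside Myc (chr15:61985391-61990374, plus strand), which is only 4.98 kb long. Pvt1 (chr15:62037986-62378096, plus strand) held 12 even, 14 odd, 14 total and 8 NDL peaks over its 340 kb, nearly all intronic. That is 41.2 peaks per Mb in the 4T1 total list and 23.5 in the NDL list, close to the density of the region as a whole in each. In the 500 kb upstream of Myc there were 25 peaks in the 4T1 total list and 15 in the NDL list. In the 500 kb beyond Pvt1 there were 17 and 11, with a highest score of 358 in the 4T1 total list and 185 in the NDL list, and none among the 1000 highest of either list.

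The highest peak of the region in the even and 4T1 total lists lay in a Pvt1 intron, 78.5 kb downstream of the Myc start (chr15:62063208-62064479). Its score was 1144.7 in the even list, 4073.1 in the odd list, 1843.4 in the 4T1 total list and 834.1 in the NDL list. These scores ranked 8th, 6th, 5th and 49th among all peaks of their lists. It was the only locus of the region among the 10 highest of the genome in all 3 lists from 4T1 cells. Oligonucleotide 4, an even oligonucleotide, gave its longest match, yet the odd pool also gave it a high score.

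A further 3 high loci flanked Myc. The peak 189 kb upstream (chr15:61795554-61796613) had scores of 780.6, 74.2, 1345.3 and 639.5 in the even, odd, 4T1 total and NDL lists. The peak 58.6 kb upstream (chr15:61926256-61927374) had 650.9, 288.9, 1200.5 and 527.8, and the one 31.7 kb downstream of the Myc start (chr15:62016266-62017970) had 727.8, 2341.5, 1164 and 567.6. All 3 were present in the 4 lists.

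In the odd and NDL lists the highest peak of the region lay in an intron of Adcy8, an adenylyl cyclase gene (chr15:64772948-64773833). It scored 4941.4 in the odd list, where it was the 2nd highest of the genome, 1758.2 in the 4T1 total list and 862.9 in the NDL list, but 43.2 in the even list. Oligonucleotide 11, an odd one, shares 16 bases with it. The intergenic peak at chr15:57052076-57053057, which shares 16 bases with the same oligonucleotide, scored 4339.4, 1460.3 and 844.1 in the odd, 4T1 total and NDL lists and was absent from the even list. The peak in an intron of Fam49b (chr15:64040096-64040846), matched by oligonucleotide 7, scored 3148.7 in the odd list and 1522.3 in the 4T1 total list, and neither the even nor the NDL list had it.

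Taking the 10 highest region peaks of any list gave 19 loci. Of these, 11 were in all 4 lists, 5 in 3 and 3 in 2, and 10 were intergenic, 8 intronic and 1 overlapped an exon. In all, 18 of the 19 held an exact match of 12 to 17 bases to a MaTAR25 oligonucleotide. An even-numbered oligonucleotide alone matched 10 of the loci, and 5 of these were missing from the odd list or scored under 100 there. An odd-numbered one alone matched 8 loci, and 7 of them were missing from the even list or scored under 100 there.

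Matches of 12 or more bases were frequent over all peaks of the region, and about as frequent in the rest of the chromosome. They were found in 21.0% of the even peaks, 21.8% of the odd peaks, 24.1% of the 4T1 total peaks and 26.1% of the NDL peaks of the region. In the rest of chromosome 15 the shares were 21.5%, 25.3%, 24.7% and 24.5%. Stretches of the same length 10 kb away from the region's peaks had a match in 0.975 to 1.61%. The pools mostly followed their own oligonucleotides. In the even list 18.8% of the region's peaks matched an even-numbered oligonucleotide and 2.34% an odd-numbered one. In the odd list 6.20% matched an even-numbered one, against 0.795% in the stretches 10 kb away, and 15.7% an odd-numbered one. Oligonucleotide 4, an even one, did not follow its pool, with a match in 23 even and 20 odd peaks of the region. Matches to the 8 Ppib oligonucleotides stood at 0.262 to 0.584%, and at 1.05 to 2.14% in the stretches 10 kb away. The peaks were called over the Ppib pulldown, which makes these matches no neutral comparison. Oligonucleotide 12 was the most frequent in the region, in 47 even, 44 total and 34 NDL peaks but 4 odd peaks, and in the odd list oligonucleotide 11 led with 29. Among the region's peaks in the top decile of their list by score, the share with a match was 48.3% in the even list, 55.8% in the odd list, 55.4% in the 4T1 total list and 61.9% in the NDL list. In the rest of chromosome 15 the top-decile shares were also high, at 44.5%, 54.5%, 50% and 53.3% in the same order.

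When peaks of all lists that overlapped were joined, the region held 1334 loci. Only 102 of them (7.65%) were in all 4 lists, 315 were in 3, 314 in 2 and 603 (45.2%) in 1. The share with a match rose with the number of lists, from 12.4% of the loci in 1 list to 17.2%, 28.6% and 40.2% of those in 2, 3 and 4. The loci also grew longer, with a median of 500 bp in 1 list and 849 bp in 4.

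Fewer of the region's 4T1 peaks were found in NDL cells than elsewhere on the chromosome. Of the 4T1 total peaks, 51.4% overlapped an NDL peak in the region (95% Wilson interval 47.90 to 54.97%) and 67.5% in the rest of chromosome 15 (65.7 to 69.3%). For the even list the shares were 47.2% and 63.3%, and for the odd list 30.5% and 41.3%. Seen from the NDL list the order was the other way round, with 76.4% of its region peaks (72.6 to 79.9%) and 71.4% of its other chromosome 15 peaks overlapping a 4T1 total peak. Between the 3 lists of 4T1 cells the shares of the region and of the rest lay closer together, for example 75.8% and 78.9% of the even peaks with a 4T1 total peak.

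Peaks that both total lists shared also scored higher in 4T1 cells across most of the region. For each pair of peaks that were each other's best overlap, the log2 ratio of the 4T1 total score to the NDL score was taken and centred on the median over the whole genome. In the region the median was 0.50 (95% interval 0.41 to 0.60, counting error over 392 peaks only), which is 1.41-fold, and 74.2% of the peaks lay above 0. The rest of chromosome 15 gave -0.14 over 1786 peaks, and the other chromosomes together 0.00. The even list over the NDL list gave 0.54 in the region (322 peaks) and -0.12 in the rest, while the odd list over the NDL list gave 0.42 with an interval from -0.28 to 0.82 that spans 0. Between lists of the same 4T1 cells the region's median was smaller but not always near 0. It was 0.15 (0.11 to 0.21) for even over total, where the rest of chromosome 15 gave -0.07. Even over odd gave 0.24 (0.05 to 0.58) in the region, and 0.57 (0.10 to 0.86) from 61 to 69 Mb. Odd over total gave -0.25 (-0.70 to 0.11).

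The shift ran in blocks along the chromosome, whose bounds were drawn after the ratios had been seen. From 55 to 59 Mb the median log2 ratio was 0.77 and from 61 to 69 Mb it was 0.92, where 94.5% of 145 shared peaks lay above 0. From 50 to 55 Mb it was -0.02 and from 59 to 61 Mb 0.02, so that a stretch beside Myc did not share the shift. Beyond the region the ratio was 0.31 from 69 to 73 Mb and -0.38 from there to the end. The Mb that holds Myc, from 61 to 62 Mb, had the highest median of the region, at 1.02. The even list over the NDL list gave 0.76, 0.09 and 0.79 in the blocks from 55, 59 and 61 Mb. The odd list over the NDL list did not follow these blocks: its medians were 0.53 from 55 Mb, 0.57 from 59 Mb and 0.54 from 50 Mb, and -0.10 from 61 to 69 Mb, the block of Myc, where 48.1% of 79 shared peaks lay above 0. Its intervals were wide and spanned 0 in all 4 blocks (-0.66 to 1.29 in that of Myc).

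**Figure D3:**
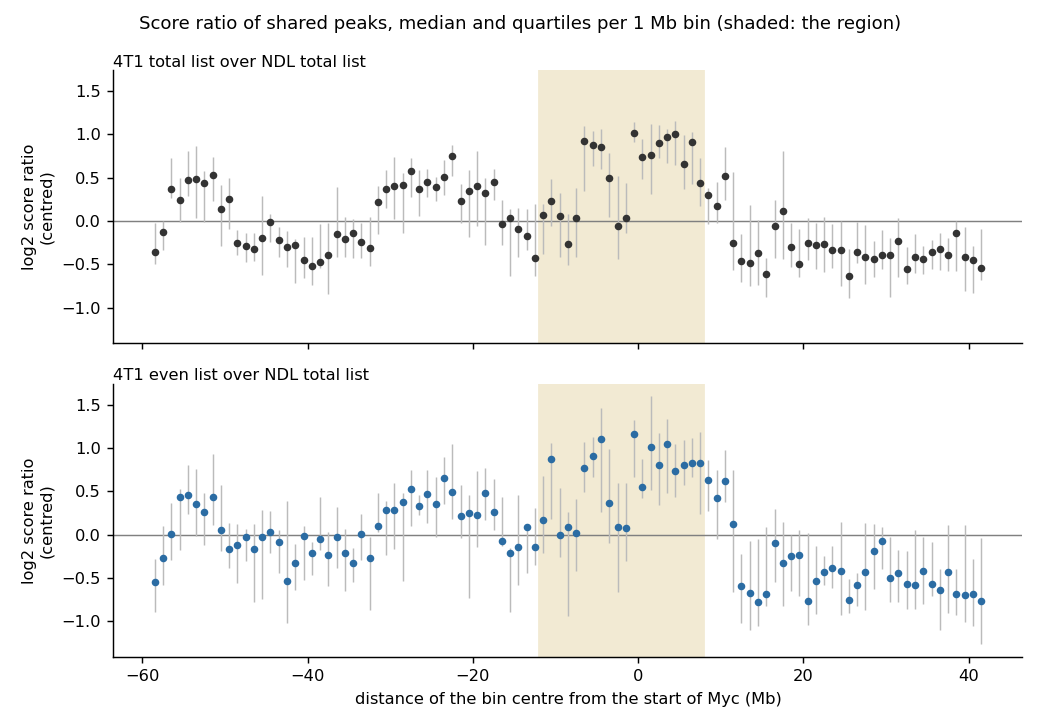
Median (points) and quartiles (bars) per 1 Mb bin of the centred log2 score ratio of shared peaks, for the 4T1 total list (upper panel) and the 4T1 even list (lower panel) over the NDL total list, by distance of the bin centre from the start of Myc in Mb, with the region shaded. In the upper panel the bins from 55 to 69 Mb have medians of 0.50 to 1.02, apart from those at 59 to 61 Mb near 0, and the points of the distal chromosome lie mostly below 0.

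DNA copy number was not measured in the files used here, so its part in the scores was not tested. The series also lists libraries of input DNA from both kinds of cells, which were not used here. Several values bear on how wide the shift was. For the 4T1 total list it was present in shared peaks without an oligonucleotide match (0.42 over 276 peaks, against -0.15 in the rest of chromosome 15) and with one (0.68 over 116 peaks). It was present there in peaks with an NDL score of at least 100 (0.67) and under 100 (0.48). The even list over the NDL list gave 0.54 without a match and 0.55 with one. The odd list gave -0.03 (-0.55 to 0.58) without a match and 0.95 (0.53 to 1.29) with one. In the rest of chromosome 15 the odd list gave -0.30 and 0.22. Peak density followed the same blocks in the 4T1 total list only in part: 29.0 peaks per Mb from 50 to 55 Mb, 39.5 from 55 to 59 Mb, 49.5 from 59 to 61 Mb and 41 from 61 to 69 Mb. Whole chromosomes also differed in the ratio, from -0.93 on chromosome X to 0.27 on chromosome 8. Because the 4T1 and NDL lists differ in cell type, tumor model, mouse strain and preparation, these cannot be told apart.

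The region is poor in genes, and its peaks lay accordingly far from gene starts. It holds 75 protein-coding genes, 3.75 per Mb, where the rest of chromosome 15 holds 8.80 per Mb. Of its peaks, 57.7 to 60.7% over the 4 lists were intergenic, against 47.9 to 49.3% in the rest. The median distance to a transcription start was 35.6 kb in the 4T1 total list and 31.8 kb in the NDL list, and 18.4 and 17.4 kb in the rest. The sequences under the peaks were also a little poorer in G and C, with medians of 42.2 and 44.7% in the 4T1 total list. The genes with the most 4T1 total peaks were long ones. The lincRNA gene Gm41335 held 18 over 541 kb, Kcnq3, a potassium channel gene of 300 kb, held 17, Samd12 held 15 over 449 kb, Pvt1 held 14, and Asap1, Ext1, Nsmce2 and Sntb1 held 13 each. The NDL list had 7 peaks in Gm41335, 7 in Kcnq3 and 12 in Samd12. Has2, the gene of a hyaluronan synthase, held no 4T1 peak and 1 NDL peak with a score of 24.3, and the nearest of the high loci, at chr15:56797547-56798738, lay 103603 bp from it.

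The expression of the region's genes was then set beside the peaks. Of its 238 annotated genes, 147 were in the count tables and 67 passed the filter on low counts, 56 of them protein-coding. Libraries held 25367211 to 61110585 gene counts. MaTAR25 itself was counted 35 and 30 times in Control, 2, 7 and 0 times in KO1, and 11, 1, 9 and 6 times in KO2 (edgeR, adjusted p = 0.0561 for both clones against Control). All 6 markers of mammary epithelium were above 1 CPM (counts scaled to the size of the library) in all libraries, with sums of 3717 to 3900 CPM in Control, 5051 to 7328 in KO1 and 2193 to 4530 in KO2. Sums of 5 immune markers were 3.202 to 4.235, 11.4 to 28.4 and 1.77 to 20.3 CPM in the same groups, of 5 fibroblast markers 20.3 to 25.9, 21.6 to 40.6 and 11.8 to 47.6 CPM, and of 3 endothelial markers under 2 CPM. The immune sums were nearly all Cd68 and the fibroblast sums mostly Pdgfra, while Ptprc stayed under 1 CPM and Adgre1, Dcn and Lum were at 0 in all libraries. With bulk RNA fewer cells of a type and less RNA per cell cannot be told apart.

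In the Control cells the median level of the region's tested coding genes was above that of the rest of chromosome 15, with overlapping quartile ranges. It was 10.6 CPM per kb of exon (quartiles 1.42 and 21.0), against 7.38 in the rest (1.99 and 18.65). Over all 12542 tested coding genes it was 7.06, and the difference was not tested. By gene start, the median was 7.75 CPM per kb for 11 genes from 50 to 55 Mb, 10.4 for 23 genes from 55 to 59 Mb, 18.6 for 6 genes from 59 to 61 Mb and 5.36 for 16 genes from 61 to 69 Mb. The quartile ranges of these blocks overlapped, and a relation between level and score ratio was not tested. The highest levels per kb were those of Ndufb9, a subunit of respiratory complex I, at 220 CPM per kb, of Myc at 177, of the translation initiation factor gene Eif3h at 157 and of the cohesin subunit gene Rad21 at 88.4. Pvt1 was at 4.44 CPM per kb. Kcnq3, with 17 4T1 total peaks inside it, had no counts in either Control library.

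Of the 67 genes, 19 were called between both clones together and Control (edgeR quasi-likelihood test, adjusted p under 0.1), 7 higher and 12 lower in the knockouts. That is 28.4%, beside 22.6% of all 15023 genes tested. By direction, 10.4% rose and 17.9% fell, beside 11.9% and 10.7% of all genes. The median log2 fold change was -0.05 in the region, 0.13 in the rest of chromosome 15 and 0.06 over all genes. For 29 of the 67 genes (43.3%, beside 34.4% of all genes) the knockout and Control libraries did not overlap. Without Control 1, 2 of the region's genes were called and without Control 2, 5 were, where the calls over all genes also dropped, to 2.95% and 3.61% of those tested. Zhx2 and Ndrg1 were the genes that kept an adjusted p under 0.1 without either one. Nothing in the labels says that libraries of a group came from separate cultures, so the p-values measure the spread between these libraries, which may be technical.

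The clones were also compared with Control singly, sharing the same 2 Control libraries. In KO1, 28 genes were called (41.8%, beside 31.6% of all genes), 13 higher and 15 lower (19.4% and 22.4%, beside 15.9% and 15.7%). In KO2 it was 25 (37.3%, beside 31.4%), 8 higher and 17 lower (11.9% and 25.4%, beside 16.5% and 15%). Without Control 1 the counts were 5 for KO1 and 11 for KO2 (beside 9.46% and 8.72% of all genes), without Control 2 they were 11 and 12 (beside 11.1% and 9.15%), and without KO1 replicate 3 that of KO1 was 15 (beside 21.9%). Median log2 fold changes were 0.02 in KO1 and -0.03 in KO2, where the rest of chromosome 15 gave 0.28 and -0.07.

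Both genes of the Myc locus were lower in the knockouts. Myc stood at 505 and 457 CPM in the Control libraries, at 209, 284 and 313 CPM in KO1 and at 138, 197, 245 and 153 CPM in KO2. All 7 knockout libraries lay below both Control libraries. The log2 fold change was -1.13 ± 0.27 (SE; edgeR, adjusted p = 0.0205) for both clones, -0.84 ± 0.25 for KO1 (adjusted p = 0.0402) and -1.39 ± 0.24 for KO2 (adjusted p = 0.00444). Pvt1 stood at 37.5 and 24.5 CPM in Control, at 12.3, 15.3 and 16.4 CPM in KO1 and at 20.6, 18.2, 18.9 and 18.0 CPM in KO2. The groups did not overlap, but the Control libraries lay further apart than those of either clone. The log2 fold change of Pvt1 was -0.86 ± 0.23 (edgeR, adjusted p = 0.0300). Without Control 1 the adjusted p was 0.205 for Myc and 0.442 for Pvt1, so neither call held without that library.

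**Figure D4:**
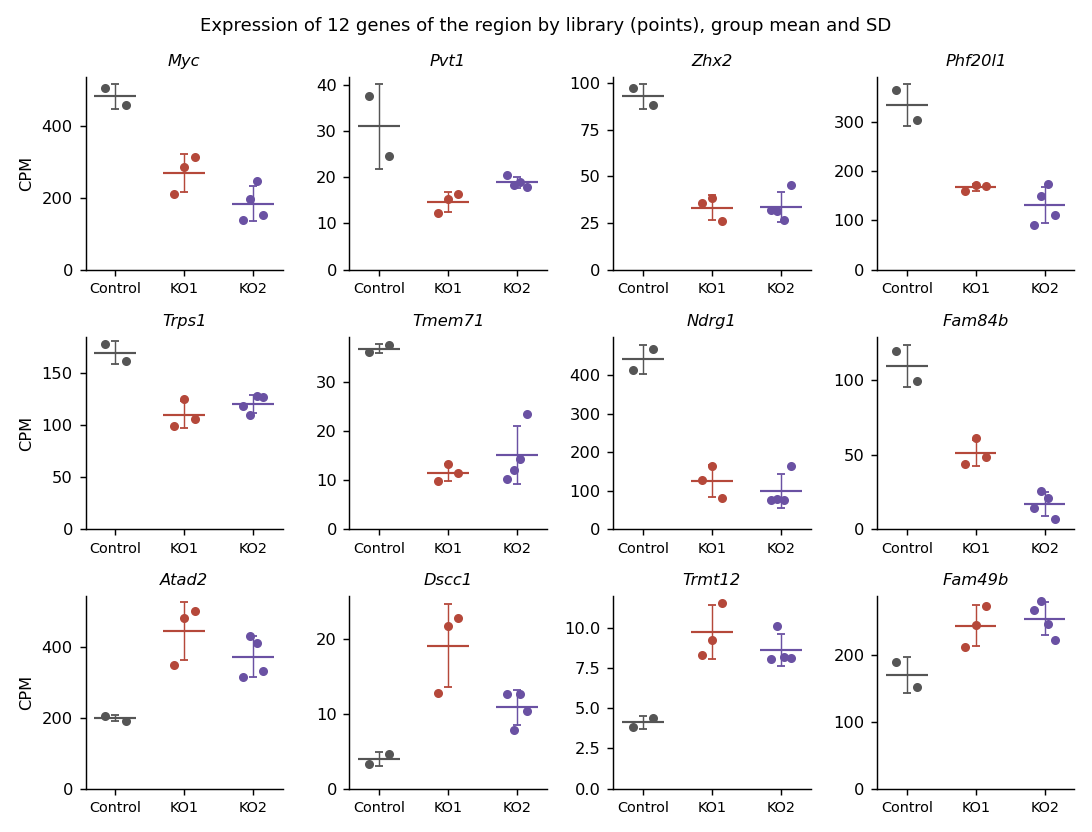
Expression (CPM, vertical axes from 0) of 12 genes of the region in each RNA-seq library (points) of Control, KO1 and KO2, with the group mean (line) and SD (bars). The Control points of Myc, at 457 and 505 CPM, lie above all 7 knockout points, while those of Atad2, at 192 and 205 CPM, lie below them.

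Of 8 transcription factor and chromatin genes of the region, 4 fell and 1 rose in both clones together, with a median log2 fold change of -0.33, where 10.7% of all genes fell and 11.9% rose. Zhx2, a zinc finger and homeobox repressor, stood at 97.4 and 88.0 CPM in Control, at 35.6, 38.3 and 26.0 CPM in KO1 and at 31.9, 31.5, 26.5 and 45.2 CPM in KO2. The clones were alike and well below Control (log2 fold change -1.47 ± 0.20, edgeR, adjusted p = 0.00243). The gene held 11 4T1 total peaks, with scores up to 609.5, and its intergenic flank held the locus with the longest match. Its relative Zhx1 stood at 66.7 and 58.4 CPM in Control, at 26.8 to 37.0 CPM in KO1 and at 24.1 to 59.4 CPM in KO2, where 1 library lay within the Control range (-0.77 ± 0.29, adjusted p = 0.0997, edgeR).

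Phf20l1, which encodes a reader of methylated lysine, stood at 365 and 304 CPM in Control, at 160, 172 and 170 CPM in KO1 and at 91.1, 149, 174 and 111 CPM in KO2 (log2 fold change -1.19 ± 0.23, edgeR, adjusted p = 0.00927). It held no 4T1 total peak, but 3 odd peaks with scores up to 235.8, 1 even peak of 17.5 and 1 NDL peak of 21.7. Trps1, a GATA-type zinc finger repressor, stood at 178 and 162 CPM in Control and at 99.4 to 125 CPM in KO1 and 110 to 128 CPM in KO2 (-0.54 ± 0.14, adjusted p = 0.0269). Neither gene's knockout libraries overlapped Control. Atad2, a bromodomain ATPase of proliferating cells, was the member that rose. It stood at 205 and 192 CPM in Control, at 350, 482 and 500 CPM in KO1 and at 316, 430, 412 and 333 CPM in KO2 (1.02 ± 0.21, edgeR, adjusted p = 0.0111).

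Among 5 genes of chromosome and DNA maintenance, which also count Atad2, 2 rose, beside 11.9% of all genes, and the median log2 fold change was 0.37. Dscc1, part of a clamp loader for sister chromatid cohesion, stood at 3.36 and 4.70 CPM in Control, at 12.8, 21.8 and 22.9 CPM in KO1 and at 12.6, 7.83, 12.7 and 10.3 CPM in KO2. All knockout libraries were higher, and KO1 was higher than KO2 (1.84 ± 0.45 for both clones, edgeR, adjusted p = 0.0228). Rad21 passed in KO1 alone against Control (0.53 ± 0.20, adjusted p = 0.0798), with 391 and 357 CPM in Control, 429 to 608 in KO1 and 382 to 515 in KO2, and its difference between the clones did not pass. Nsmce2, a SUMO ligase gene with 13 4T1 total peaks, stood at 24.4 and 24.2 CPM in Control and at 24.0 to 32.8 CPM in the knockouts (0.23 ± 0.19, adjusted p = 0.431).

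Of 4 tested genes of translation and RNA, 2 rose, beside 11.9% of all genes. Their median log2 fold change was 0.38. Trmt12, of the wybutosine pathway of tRNA, stood at 3.84 and 4.39 CPM in Control, at 8.31, 9.25 and 11.5 CPM in KO1 and at 8.03, 10.1, 8.16 and 8.13 CPM in KO2 (1.14 ± 0.27, edgeR, adjusted p = 0.0187). The mitochondrial ribosomal gene Mrpl13 stood at 115 and 109 CPM in Control and at 127 to 208 CPM in the knockouts (0.49 ± 0.18, adjusted p = 0.0997). Eif3h, at 258 and 248 CPM in Control and 228 to 357 CPM in the knockouts, did not pass (0.17 ± 0.19, adjusted p = 0.592).

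Of 8 tested genes of membrane traffic, actin and adhesion, 2 rose, beside 11.9% of all genes. Fam49b, whose protein binds Rac and limits actin remodelling, stood at 189 and 151 CPM in Control, at 212, 244 and 273 CPM in KO1 and at 266, 280, 246 and 222 CPM in KO2. The groups did not overlap (0.55 ± 0.16, edgeR, adjusted p = 0.0428). The ferlin gene Fer1l6 stood at 1.01 and 0.945 CPM in Control, at 4.03, 13 and 9.28 CPM in KO1 and at 48.4, 10.2, 14.2 and 9.48 CPM in KO2 (3.98 ± 0.97, adjusted p = 0.0219). Its intronic peak at chr15:58617113-58618186 scored 1652.9 in the odd list, 679.7 in the 4T1 total list and 575.1 in the NDL list. Asap1, an Arf GTPase activator with 13 4T1 total peaks and an odd peak of 1414.5, stood at 291 and 249 CPM in Control and at 283 to 333 CPM in the knockouts (0.18 ± 0.13, adjusted p = 0.358). Derl1, of protein export from the endoplasmic reticulum, stood at 216 and 222 CPM in Control and 172 to 233 CPM in the knockouts (-0.14 ± 0.15, adjusted p = 0.569).

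Of 8 tested genes of metabolism and signalling, 1 rose and 2 fell, beside 11.9% and 10.7% of all genes. Ndrg1, a gene induced by hypoxia and differentiation, stood at 414 and 468 CPM in Control, at 127, 164 and 81.6 CPM in KO1 and at 76.7, 77.3, 74.9 and 165 CPM in KO2. It fell in both clones (log2 fold change -2.01 ± 0.32, edgeR, adjusted p = 0.00409) and held 1 4T1 total peak with a score of 73.4. Rnf139, a ubiquitin ligase gene, stood at 114 and 103 CPM in Control and at 73.1 to 86.1 CPM in the knockouts (-0.43 ± 0.13, adjusted p = 0.0488). It overlaps Tatdn1 on the other strand, and the counting is not stated to use strand, so reads of the shared stretch cannot be told apart. Adcy8 had no counts in Control and 0.0319 to 0.0811 CPM in KO1 and 0.294 to 0.585 CPM in KO2. Against a floor of 3 counts over both Control libraries it was at least 6.15-fold higher in the knockouts (edgeR, adjusted p = 0.0679), at a level far below 1 CPM even so. The KO1 levels lay far below those of KO2, so this bound rests mostly on KO2.

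The list of matrix, glycan and secreted factors had 6 tested members, of which 1 rose in KO1, beside 15.9% of all genes, and 1 fell in KO2, beside 15%. St3gal1, a sialyltransferase gene, had a log2 fold change of 1.67 ± 0.52 in KO1 (edgeR, adjusted p = 0.0443), and Ccn4, a matricellular protein gene, one of -4.91 ± 1.05 in KO2 (adjusted p = 0.0113). Has2 stood at 57.1 and 31.1 CPM in Control, at 15.4, 26.6 and 40.2 CPM in KO1 and at 125, 73.4, 33.1 and 69.04 CPM in KO2. Its knockout and Control libraries overlapped (0.31 ± 0.66 for both clones, adjusted p = 0.787). KO1 was lower than KO2 (-1.45 ± 0.46, adjusted p = 0.0703), with 1 KO2 library inside the range of KO1. Ext1, a heparan sulfate polymerase gene with 13 4T1 total peaks, stood at 65.8 and 59.5 CPM in Control and at 46.8 to 73.7 CPM in the knockouts (-0.19 ± 0.19, adjusted p = 0.530).

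Outside these lists, Fam84b and Tmem71 were among the genes that fell most. Fam84b stood at 119 and 99.3 CPM in Control, at 44.0, 61.01 and 48.2 CPM in KO1 and at 14.0, 25.6, 21.1 and 6.99 CPM in KO2 (-1.79 ± 0.59, edgeR, adjusted p = 0.0668). Tmem71 stood at 36.0 and 37.4 CPM in Control, at 9.89, 13.2 and 11.4 CPM in KO1 and at 10.2, 12.1, 14.3 and 23.4 CPM in KO2 (-1.44 ± 0.29, adjusted p = 0.0111). For both genes all knockout libraries lay below Control. Samd12, with 15 4T1 total peaks, stood at 23.3 and 21.1 CPM in Control and at 3.21 to 15.8 CPM in the knockouts, without overlap, but passed in KO2 alone (-1.65 ± 0.56, adjusted p = 0.0618).

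**Figure D5:**
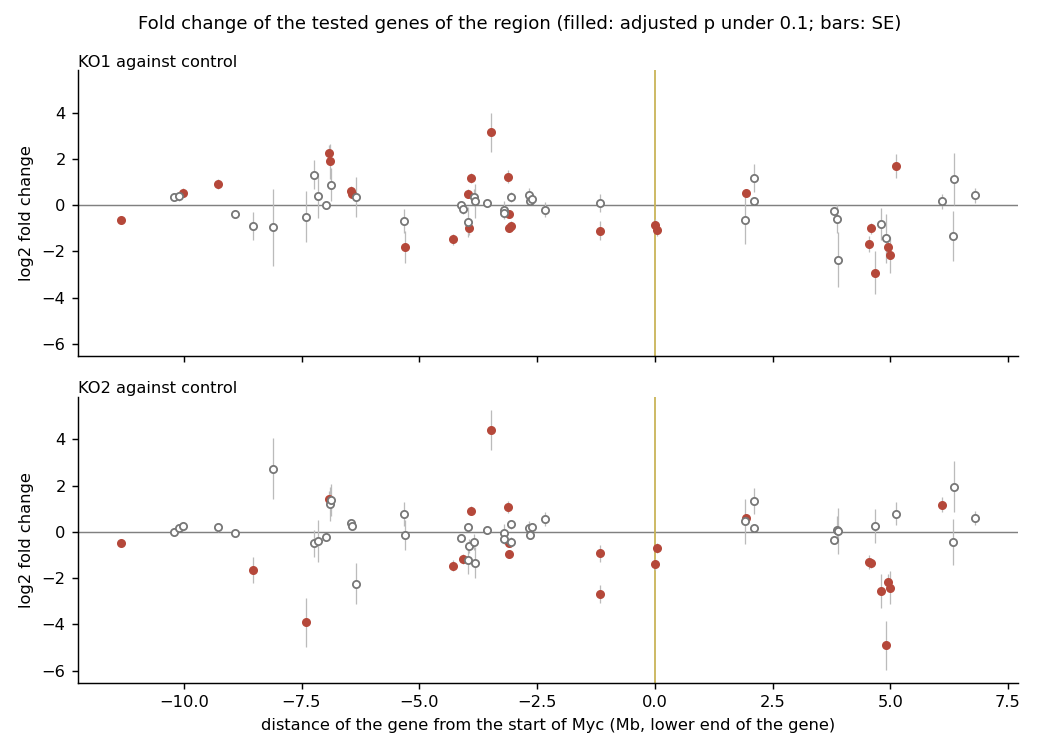
Log2 fold change (points) with SE (bars) of the tested genes of the region in KO1 (upper panel) and KO2 (lower panel) against Control, by distance of the gene's lower end from the start of Myc in Mb (vertical line), with genes of adjusted p under 0.1 filled. The panels show 27 filled and 38 open points for KO1 and 23 and 42 for KO2, without the 2 genes at 0 in Control, and filled points lie on both sides of 0.

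The clones differed from each other at 16 of the 67 genes (23.9%, beside 19.6% of all genes), 10 higher and 6 lower in KO1 (14.9% and 8.96%, beside 9.43% and 10.2%). The count moved with single libraries, to 6, 2 and 7 without KO1 replicates 1, 2 and 3 (beside 9.57%, 5.79% and 11.3% of all genes), to 10 without KO2 replicate 1 (14.9%) and to 26 without KO2 replicate 3 (27.5%). Mal2, a raft protein gene of polarized epithelium, stood at 249 and 212 CPM in Control, at 156, 172 and 164 CPM in KO1 and at 9.81, 12.3, 38.9 and 0.143 CPM in KO2. KO2 lay below KO1 in all libraries (KO1 against KO2 3.42 ± 0.99, edgeR, adjusted p = 0.0551). Fam84b was also higher in KO1 than in KO2 (1.60 ± 0.36, adjusted p = 0.0247). Sntb1, a syntrophin gene with 13 4T1 total peaks, was at 0.243 to 0.696 CPM in KO1 and at 0 to 0.223 CPM in KO2 (2.59 ± 0.82, adjusted p = 0.0699).

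Calls were also counted by whether a gene held a peak. Of 47 tested genes with a 4T1 total peak inside, 13 were called between both clones and Control (27.7%), and of 20 without one, 6 (30.0%), beside 22.6% of all genes tested. With the even list it was 11 of 42 and 8 of 25, with the odd list 12 of 39 and 7 of 28, and with the NDL list 11 of 42 and 8 of 25. Of the 21 tested genes with a 4T1 total peak within 5 kb of their start, 5 were called, among them Pvt1, Tmem71 and Trmt12. Myc had a peak within 5 kb of its start in the odd list, with a score of 82.5. Genes that hold peaks are longer than those that do not, which was not adjusted for.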

How the data were processed

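ChIRP-seq reads were aligned by the authors with Bowtie2, and peaks were called with HOMER on pooled replicates against the Ppib pulldown and annotated with GENCODE vM16. The deposited peak score was used as given, and how it was scaled is not stated in any source used here. For RNA-seq, reads were aligned with STAR, and the deposited raw counts per gene were made by the authors with HTSeq on GENCODE vM5. The summary entries that name no gene, 33.9 to 37.0% of each library, were left out, and KO2 replicate 2, which lists each gene 3 times with the same count, was read once. Libraries held 25367211 to 61110585 gene counts. Genes were tested with edgeR 4.0.16 (TMM, filterByExpr, quasi-likelihood F-test, Benjamini-Hochberg over 15023 genes, threshold 0.1) in R 4.3.3, with DESeq2 1.42.0 as an alternative. On simulated counts with 4-fold changes, the fit of both clones against Control recovered 81.3% of 187 changed genes and the 3-group fit 66.5 to 80.9%. Peaks were handled in Python 3.11.15, with exact matches of at least 12 bases on either strand counted as oligonucleotide matches and an overlap of 1 bp as shared. Intervals cover counting error only.

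Named genes were Myc, Pvt1 and Has2, the genes holding or nearest to the 3 highest region peaks of each list, the 5 genes (with ties) with the most 4T1 total peaks, the 8 with the highest level per kb in Control, the called genes of at least 1 CPM without overlap with the largest changes (6 in each direction), and up to 2 more called members of each role list. St3gal1, Ccn4, Tatdn1 and Hhla1 were chosen after their values were seen. Of the 34 named genes 29 were tested, and the non-coding Gm24696, Gm5673, Gm2582 and Gm41335 and the channel gene Kcnq3 were not. The region, its genes and the lists were chosen with earlier results of these data known. Of the role lists, Rrs1 lies outside the region and Khdrbs3, Col14a1, Tnfrsf11b, Colec10, Anxa13 and Slc30a8 did not pass the filter. Same-numbered libraries of different groups were checked for shared deviations.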

Additional observations from a re-analysis of the deposited data

Results flagged for a closer look

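In 5 of the 29 tested named genes, 1 KO2 library stood so far from the other 3 that the gap took up most of the range of the group. Chance meets this criterion in about 1 in 20 groups of normally distributed values. The genes share the same KO2 libraries and are not separate groups. The share over all genes is not given here, so 5 of 29 is not read as an excess. The gap was 0.974 of the range for Ndrg1, where KO2 replicate 4 stood at 165 CPM and the others at 74.9 to 77.3 CPM. It was 0.939 for Fam91a1, a gene of Golgi transport, where replicate 1 stood at 396 CPM and the others at 440 to 442 CPM. For Trmt12 it was 0.937, with replicate 2 at 10.1 CPM and the others at 8.03 to 8.16 CPM. For Adcy8 it was 0.887 and for Fer1l6 0.878, with replicate 1 the highest for both, at 0.585 and 48.4 CPM.

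For 6 named genes the clones differed from each other in the direct test of KO1 against KO2, a test that does not use the Control libraries (edgeR, adjusted p under 0.1). The log2 difference, KO1 over KO2, was 3.42 for Mal2, 2.59 for Sntb1, 1.60 for Fam84b and 0.82 for Dscc1. It was -2.91 for Adcy8 and -1.45 for Has2, which were higher in KO2. Against Control, Fam84b, Dscc1 and Adcy8 moved the same way in both clones, by different amounts, though Adcy8 was barely detected in KO1.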

How the results depend on the processing

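With scores of at least 100, the density ratio of the region was 1.86 in the 4T1 even list and 1.36 in the 4T1 total list, its median percentile of score was 61.9 in the even and 50.6 in the odd list, and the share of peaks with an oligonucleotide match was 43.4% (even), 40.8% (odd), 40.9% (4T1 total) and 54.3% (NDL). The share found in all other lists was then 34.9%, 26.0%, 33.0% and 40.5%, where all peaks gave 14.6%, 16.1%, 13.4% and 19.7%. With the 1000 highest peaks of each list the density ratio was 3.71 (even), 1.89 (odd), 2.85 (4T1 total) and 1.31 (NDL), which for NDL lies above 1 and not below it, and the region held 3.50%, 2.20% and 2.90% of the top peaks of the 4T1 lists. Matches of at least 10 bases were in 59.7%, 65.3%, 62.0% and 62.4% of the peaks, and of at least 14 bases in 4.67%, 4.61%, 5.37% and 7.02%. The middle 10 Mb gave density ratios of 1.40 (odd) and 1.29 (4T1 total), and the other autosomes as the comparison 0.918 (NDL). For the score ratio of shared peaks, alternatives were chosen after seeing the data. It was 0.67 with NDL scores of at least 100 and 0.68 in the middle 10 Mb. With 4T1 scores of at least 100 it was 0.84, and with those under 100 it was 0.26. That split uses the numerator of the ratio, so it moves the ratio by itself and is no check of the shift.

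Leaving out each library in turn, the region's calls ranged from 2 to 21 for both clones against Control, from 5 to 29 for KO1, from 11 to 29 for KO2 and from 2 to 26 for KO1 against KO2, and the median log2 fold change in KO2 ranged from -0.12 to 0.20. An adjusted p under 0.05 left 18 calls in KO1 and 8 between the clones. The share of all genes at that threshold is not given here. The middle 10 Mb, with 40 tested genes, held 14 calls in KO2 (35%, beside 31.4% of all genes) and 8 between the clones (20%, beside 19.6%). Between the clones, 10 were called with at least 10 counts in every library (beside 19.8% of all genes). Without the Control libraries in the fit 9 were called (beside 13.6%). With the replicate number as a block there were 12 calls for both clones, 20 for KO1, 22 for KO2 and 10 between the clones, where 12.99%, 26.5%, 24.6% and 11.6% of all genes were called against 22.6%, 31.6%, 31.4% and 19.6% without the block. Same-numbered libraries did not deviate together (correlations of -0.20 to 0.06), so the numbers were not taken as a pairing. No result changed direction while called. Of the values for single genes, 378 kept their side of the threshold, 48 lost the call, 15 of these without Control 1 and 13 without Control 2, 1 gained it and 5, none of them called, changed sign within 1 SE of 0. Depth limited the genes below 1 CPM, such as Adcy8 and Sntb1.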

Other observations

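The single Mb bins of the odd list differed from those of the other 4T1 lists in where they were densest: its fullest bin of the region began at 64 Mb with 43 peaks, that of the even list at 61 Mb with 48 peaks and that of the 4T1 total list at 59 Mb with 60. The odd list also shared the fewest peaks with the other lists, with 48.6% of its region peaks in no other list, against 20.6% for the even list, 10.5% for the 4T1 total list and 14.8% for the NDL list.

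Hhla1, chosen after its values were seen, had no counts in Control or KO1 and stood at 0.725, 0.505, 0.136 and 0.0613 CPM in KO2. Against a floor of 3 counts over both Control libraries it was at least 9.32-fold higher in KO2 (edgeR, adjusted p = 0.0558).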
